A study of Mus musculus with 6 samples.

Results

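The Ikaros family and the E proteins are transcription factors best known from lymphoid cells, and 8 of their genes were examined here in megakaryocyte–erythroid progenitors (MEPs). The genes were *Ikzf1*, *Ikzf2*, *Ikzf3*, *Ikzf4* and *Ikzf5* of the Ikaros family and *Tcf3*, *Tcf4* and *Tcf12* of the E proteins, matched by Ensembl identifier to the deposited table of 12101 genes. The table lists 7 of the 8. *Ikzf4* is not listed and was not analysed here. *Tcf3* and *Tcf4* are the genes of E2A and E2-2, not the HMG-box genes *Tcf7l1* and *Tcf7l2* that once went by the same names.

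MEPs are the common precursors of red blood cells and megakaryocytes. They came from adult Nanog-tg mice, of strain CD-1 per the labels, with the genotype R26-M2rtTA;Col1a1-tetO-Nanog: *Rosa26* drives the tetracycline activator, and the drug doxycycline lets it switch on the *Nanog* transgene at *Col1a1*. Mice of 3 replicates received doxycycline (dox) in the drinking water for 5 days, and those of the other 3 replicates were untreated. Both groups carried both transgenes, and no dox-treated mice without the *Nanog* cassette were sequenced, so an effect of dox and one of *Nanog* cannot be told apart. The activator is not restricted to MEPs, so other cells of the mouse could have expressed *Nanog* too. The sources used here do not say how many animals made up a replicate, and p-values measure only the spread between these libraries.

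As background, Ikaros proteins bind DNA through a group of zinc fingers near the amino terminus and pair with each other through fingers at the carboxyl terminus. They recruit chromatin remodelling and deacetylase complexes, above all NuRD, and Ikaros itself is required for lymphoid development and also acts in erythroid and megakaryocytic cells. E proteins are basic helix-loop-helix (bHLH) factors that bind E-box sites as pairs. In erythroid and megakaryocytic cells they pair with TAL1 or LYL1 and join a complex with LMO2, LDB1 and GATA factors, and the ID proteins, which lack a basic region, hold them off DNA.

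Segments of the DNA-binding parts show how alike some of the members are as proteins and how far their bases differ. The second zinc finger of the Ikaros family is given as coding bases of NCBIM37, 5′ to 3′ on the coding strand, at chr11:11654027-11654089 for *Ikzf1*, chr1:69617155-69617217 for *Ikzf2*, chr11:98350254-98350316 for *Ikzf3* and chr10:128077285-128077347 for *Ikzf4*. Capitals mark bases that differ from *Ikzf1*.
Ikzf1: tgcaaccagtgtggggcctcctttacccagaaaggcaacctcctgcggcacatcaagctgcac
Ikzf2: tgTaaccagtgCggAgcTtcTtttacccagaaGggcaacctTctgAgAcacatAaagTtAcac
Ikzf3: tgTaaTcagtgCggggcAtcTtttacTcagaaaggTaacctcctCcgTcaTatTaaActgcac
Ikzf4: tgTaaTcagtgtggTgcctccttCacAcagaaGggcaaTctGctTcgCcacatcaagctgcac
The stretch has 63 bases. *Ikzf2* and *Ikzf3* each differed from *Ikzf1* at 12 of them and *Ikzf4* at 10, while all 4 genes encode the same 21 residues. *Ikzf5*, whose DNA-binding fingers are divergent, is not shown.

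For the E proteins the basic region, which contacts the E-box, is given for both alternative bHLH exons of *Tcf3* and for *Tcf12*, at chr10:79873258-79873302 (the E47 exon), chr10:79875687-79875731 (the E12 exon) and chr9:71704227-71704271 of NCBIM37. Capitals mark bases that differ from the E47 exon.
Tcf3, E47 exon: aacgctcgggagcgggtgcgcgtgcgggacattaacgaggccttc
Tcf3, E12 exon: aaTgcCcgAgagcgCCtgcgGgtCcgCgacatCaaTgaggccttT
Tcf12: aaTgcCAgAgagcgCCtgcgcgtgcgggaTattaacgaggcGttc
Of 45 bases, the E12 exon differed from the E47 exon at 11 and *Tcf12* at 8, and in each case 1 of the 15 residues differed. The segments were located by their residues, so the residue difference was set by the search. The basic region of *Tcf4* is not shown. Across all 28 pairs of the 8 genes the longest exact run that annotated transcripts of both genes shared was between 11 and 38 bases. The deposited values are per gene, so the E12 and E47 forms of *Tcf3*, like the DNA-binding and non-binding isoforms of *Ikzf1*, could not be told apart.

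Deposited values are log2 counts per 1000000 reads (CPM) of a normalized library size, and levels are printed here as CPM. Where 3 values are given for a group, they are replicates 1, 2 and 3 in that order. The 6 libraries held between 11264803 and 16153600 reads on listed genes, 1 read was worth between 0.0642 and 0.0910 CPM, and a floor of 3 reads came to 0.193 to 0.273 CPM, limits that cover counting error alone. *Nanog* had 17062, 19609 and 15959 reads in dox-treated replicates 1, 2 and 3 and 9, 13 and 1 in the untreated replicates. All 10 MEP markers were listed, with a summed level of 2132 to 2410 CPM with dox and 2729 to 3146 CPM without. MEPs are sorted as lineage-negative, Kit-positive cells without Sca1 and with little CD34 and CD16/32; *Ly6a* (Sca1) and the lineage genes *Cd3e*, *Cd4*, *Cd8a* and *Ly6g* are not listed, but *Cd34* is, at 62.8 to 171.7 CPM with dox and 23.8 to 57.6 CPM without. Dox-treated replicate 3 stood apart from the other dox-treated libraries, with 8987 CPM of 14 erythroid markers against 5064 and 4896 CPM, and 131.2 CPM of the 10 listed megakaryocyte markers against 438.4 and 427.9 CPM. Untreated libraries had 7641 to 8188 CPM of the erythroid and 89.1 to 128.8 CPM of the megakaryocyte markers. For both lists these ranges were nearer to replicate 3 than to replicates 1 and 2. Values without dox-treated replicate 3 are given below. Of the 12088 genes tested with limma, 7.77% passed an adjusted p of 0.05 in either direction, 4.59% higher and 3.18% lower with dox, and the median log2 fold change of all genes was −0.03.

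Of the 7 listed members, *Ikzf2* rose with dox and no other gene passed the threshold. At an unadjusted limma p under 0.05, 2 members were higher with dox and 3 lower, 5 of 7 beside 29.2% of all genes tested. The libraries of the groups did not overlap for the same number, 2 higher and 3 lower, beside 35.9% of all genes tested. *Ikzf3*, one of the 3 lower members in both counts, entered the test only through the untreated group, so these counts are a description. The median log2 fold change of the 7 was −0.01. In bulk RNA of a sorted population, fewer cells of a type and less RNA per cell cannot be told apart.

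**Figure D1:**
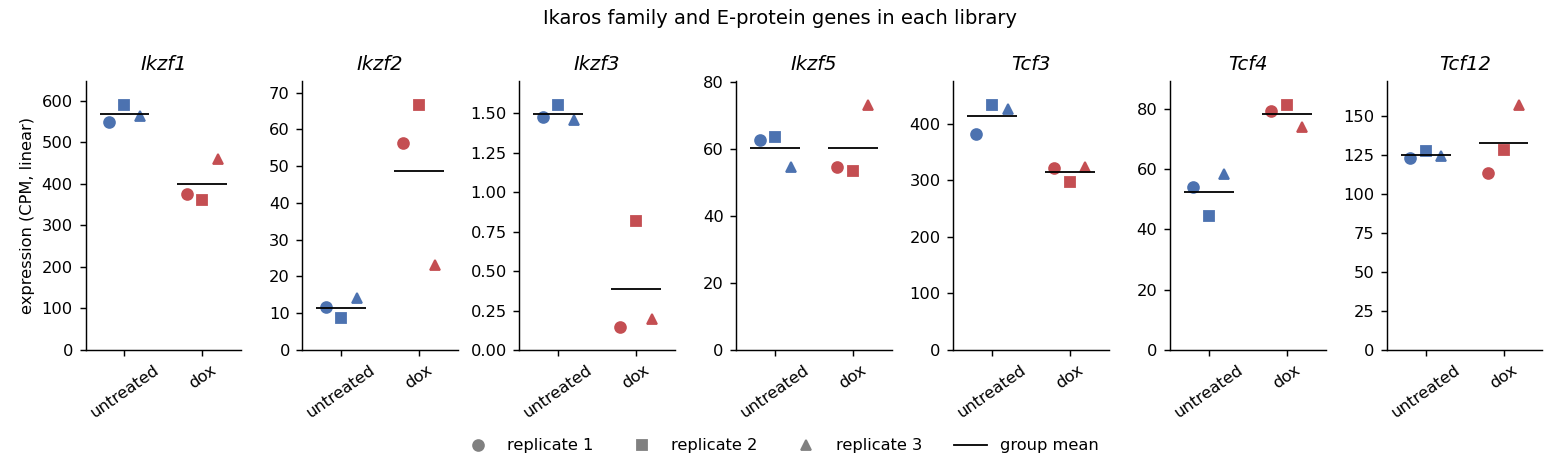
Level of each listed gene in every library, in CPM on a linear axis from 0, with untreated libraries in blue, dox-treated libraries in red, a marker shape for each replicate number and a line at the group mean. The groups do not overlap for *Ikzf1*, *Ikzf2*, *Ikzf3*, *Tcf3* and *Tcf4* and overlap for *Ikzf5* and *Tcf12*; dox-treated replicate 3 has the lowest *Ikzf2* and the highest *Ikzf1* of its group.

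*Ikzf1*, which encodes Ikaros and lies on chromosome 11 from 11585006 to 11672929 (ENSMUSG00000018654), was the Ikaros family gene with the highest level per transcript length in every library. It had 376.0, 360.8 and 460.5 CPM in dox-treated replicates 1, 2 and 3 and 548.2, 588.5 and 564.1 CPM in the untreated replicates. Every dox-treated library lay under every untreated one. The means were 399.1 ± 53.7 and 566.9 ± 20.3 CPM (SD, n = 3 each), a log2 fold change of −0.51 (SE 0.13, 95% interval −0.83 to −0.20) with an adjusted p of 0.066 by limma, short of the threshold. The two-sided exact permutation test gave p = 0.1, the smallest that 3 libraries against 3 allow. Without dox-treated replicate 3 the log2 fold change was −0.62 and the adjusted limma p was 0.014, and with quantile normalization they were −0.34 and 0.069. An antisense transcript, *Gm12000*, overlaps *Ikzf1* and is itself listed, and the sources do not say whether reads were counted by strand.

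*Ikzf2* encodes Helios, best known from regulatory T cells and also present in stem cells and early progenitors, and lies on chromosome 1 from 69577788 to 69732534 (ENSMUSG00000025997). The dox-treated replicates had 56.2, 66.5 and 23.2 CPM and the untreated replicates 11.8, 8.79 and 14.0 CPM, from between 119 and 893 reads. The lowest dox-treated library, replicate 3, was still above the highest untreated one. Mean levels of 48.6 ± 22.6 and 11.5 ± 2.62 CPM (SD, n = 3 each) corresponded to a log2 fold change of 1.96 (SE 0.43, 95% interval 0.91 to 3.01), 3.89-fold, with an adjusted limma p of 0.049 and an exact permutation p of 0.1. Leaving out dox-treated replicate 3 gave a log2 fold change of 2.43 and an adjusted limma p of 0.0070. The call was lost when dox-treated replicate 1 or 2 or any of the untreated replicates 1, 2 and 3 was left out, with adjusted limma p-values between 0.12 and 0.15, and log2 fold changes between 1.67 and 2.11. With voom precision weights the adjusted p was 0.050, no longer under the threshold.

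The spread of *Ikzf2* among dox-treated libraries went with that of other markers. Replicate 3, which had the least *Ikzf2* of its group, also had the least *Cd34*, with 62.8 CPM against 171.7 and 129.2 CPM, and the lowest summed level of the 10 listed stem and multipotent progenitor markers, with 185.0 CPM against 409.1 and 346.6 CPM. That list, of which *Procr* and *Ly6a* are not listed, summed to between 89.3 and 172.5 CPM in the untreated libraries, and none of its genes passed the threshold. At an unadjusted limma p under 0.05, 5 of its genes were higher and 0 lower, beside 1888 higher and 1645 lower of all 12088 genes tested. Beside 4.59% of all genes called higher and 3.18% called lower, 3 of the 10 listed megakaryocyte markers rose and 1 fell, and 3 of the 6 listed of 11 mast cell and basophil markers rose. For megakaryocyte markers the range was 131.2 to 438.4 CPM with dox and 89.1 to 128.8 CPM without, and for mast cell and basophil markers it was 357.6 to 538.0 CPM against 158.3 to 229.0 CPM. The part of these cells in the *Ikzf2* difference was not tested. Of the genes that define T cells, another place where Helios is found, *Cd3e*, *Cd3d*, *Cd3g*, *Cd4*, *Cd8a* and *Bcl11b* are not listed. The 4 listed genes of 14 T and NK cell markers summed to between 29.6 and 42.6 CPM with dox and 33.3 and 62.1 CPM without. Of these 4, 1 rose and 1 fell. *Lat*, an adaptor of the T cell receptor, rose from 5.44, 3.03 and 7.37 CPM to 23.6, 20 and 13.3 CPM (log2 fold change 1.89, limma, adjusted p = 0.041), with dox-treated replicate 3 the lowest of its group, as for *Ikzf2*. *Nkg7*, a granule gene of NK cells, fell by 2.12 on the log2 scale (limma, adjusted p = 0.016). With 1 library left out, the adjusted limma p ran from 0.024 to 0.14 for *Lat* and from 0.016 to 0.071 for *Nkg7*. Their part in the *Ikzf2* difference was not tested.

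*Ikzf3*, the gene of Aiolos, a factor of maturing B and T cells on chromosome 11 from 98326216 to 98407345 (ENSMUSG00000018168), was near the detection floor. It had 2, 11 and 3 reads with dox and 19, 21 and 16 without, or 0.147, 0.819 and 0.193 CPM against 1.48, 1.55 and 1.46 CPM. It reached the filter of 1 CPM only through the untreated group. At these dox-treated levels it could be tested only if it was higher without dox. Pooled over each group, 16 reads stood against 56, a ratio of levels of 0.251 with an exact counting interval of 0.134 to 0.443. This interval covers counting error alone and leaves out the spread between libraries, where replicate 2 gave 11 of the 16 reads. The log2 fold change with 0.5 reads added was −2.22 (SE 0.58) with an adjusted limma p of 0.071 and an exact permutation p of 0.1. With no filter on the listed genes it was also −2.22, with an adjusted limma p of 0.072. Without dox-treated replicate 2, the highest of its group, the log2 fold change was −2.92 with an adjusted limma p of 0.0052, and without dox-treated replicate 3 it was −1.95 with 0.082.

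Markers of granulocyte-monocyte cells were also lower with dox, while the summed B cell markers overlapped between the groups. All 15 granulocyte-monocyte markers were listed and 10 fell with dox, beside 3.18% of all genes, from a summed 2433 to 5605 CPM without dox to 524.3 to 787.4 CPM with it. By replicate the sums were 787.4, 720.5 and 524.3 CPM with dox and 5605, 2433 and 4009 CPM without. Within each group this order differed from that of *Ikzf3*. The summed B cell markers, of which 9 of 14 are listed, overlapped between the groups at 25.4 to 66.8 CPM with dox and 45.6 to 53.9 CPM without. Of the 9, none rose and 1 fell, *Blnk* (log2 fold change −1.79, limma, adjusted p = 0.034), beside 3.18% of all genes. The defining B cell genes *Pax5* and *Ms4a1* are not listed. The part of either cell type in the *Ikzf3* difference, or of the granulocyte-monocyte genes in the difference of any other member, was not tested.

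*Ikzf5*, which encodes the divergent member Pegasus (chromosome 7, 138532166 to 138554035, ENSMUSG00000040167), was measured at 54.5, 53.5 and 72.9 CPM with dox and 62.7, 63.6 and 54.6 CPM without. The groups overlapped and their means were the same to 3 digits, 60.3 ± 10.9 and 60.3 ± 4.97 CPM (SD, n = 3 each). The log2 fold change was −0.01 with a 95% interval of −0.40 to 0.38, and a difference within that interval was not detectable. The sign changed with the libraries included. The annotated span of *Fgfr2*, which is not listed, covers *Ikzf5* on the same strand. *Ikzf4*, the gene of Eos (chromosome 10, 128067899 to 128083047, ENSMUSG00000002578), has no value to report.

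*Tcf3*, the gene of the E2A proteins E12 and E47, lies on chromosome 10 from 79872259 to 79896392 (ENSMUSG00000020167) and had the highest level per transcript length of the E-protein genes. It had 322.6, 297.5 and 323.5 CPM with dox and 381.8, 432.4 and 425.9 CPM without. The groups did not overlap, and dox-treated replicate 3 lay with replicates 1 and 2. The means of 314.6 ± 14.7 and 413.4 ± 27.6 CPM (SD, n = 3 each) gave a log2 fold change of −0.39 (SE 0.11, 95% interval −0.65 to −0.14) with an adjusted limma p of 0.075 and an exact permutation p of 0.1. Without dox-treated replicate 3 the values were −0.41 and an adjusted limma p of 0.042. With quantile normalization the log2 fold change was −0.21 with an adjusted limma p of 0.23.

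*Tcf4* encodes E2-2, the factor required for plasmacytoid dendritic cells, and lies on chromosome 18 from 69503800 to 69847621 (ENSMUSG00000053477). Its levels were 79.4, 81.1 and 74.1 CPM with dox and 54.2, 44.4 and 58.4 CPM without. All dox-treated libraries lay above all untreated ones, the opposite order from *Tcf3*. The log2 fold change was 0.59 (SE 0.13, 95% interval 0.26 to 0.92), 1.5-fold, from means of 78.2 ± 3.66 and 52.3 ± 7.18 CPM (SD, n = 3 each), with an adjusted limma p of 0.055 and an exact permutation p of 0.1. Without dox-treated replicate 3 it was 0.63 with an adjusted limma p of 0.036. Of 12 plasmacytoid dendritic cell markers 4 are listed, and their sum was between 50.7 and 68.8 CPM with dox and 78.1 and 102.2 CPM without. The listed genes did not move together: *Irf8* (log2 fold change −2.41) and *Lair1* (−1.84, adjusted p = 0.046 by limma and up to 0.15 with 1 library left out) fell, and *Runx2* (0.57, adjusted p = 0.48 by limma) and *Bst2* (0.04, adjusted p = 0.92) did not pass. *Irf8* is also a granulocyte-monocyte marker. The defining genes *Siglech*, *Ccr9* and *Spib* are not listed, and the part of these cells in the *Tcf4* difference was not tested.

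*Tcf12*, the gene of HEB, a factor of T cell development on chromosome 9 from 71692059 to 71959626 (ENSMUSG00000032228), was measured at 113.9, 128.1 and 157.0 CPM with dox and 123.5, 127.6 and 124.7 CPM without. The untreated libraries were within a few CPM of each other and the dox-treated ones lay on both sides of them. The log2 fold change was 0.07 (SE 0.14, 95% interval −0.27 to 0.42) with an adjusted limma p of 0.75. It was −0.05 without dox-treated replicate 3, the highest library.

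**Figure D2:**
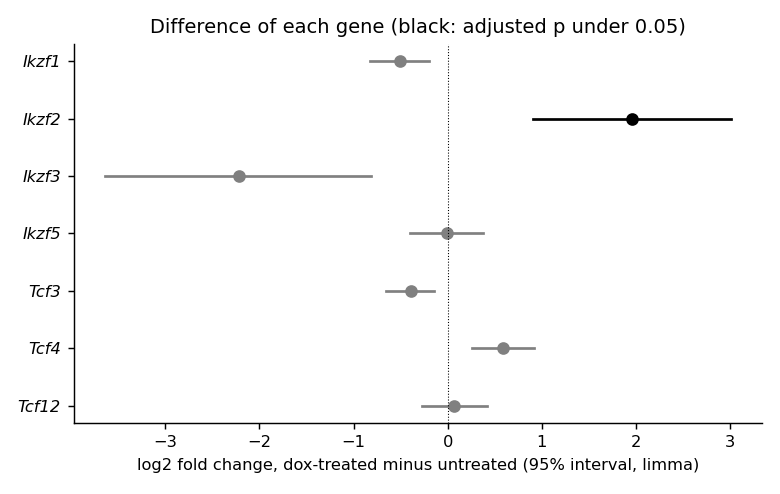
Log2 fold change of each listed gene, dox-treated minus untreated, on the horizontal axis, with its 95% interval from limma as a bar and black for an adjusted p under 0.05. Only the point of *Ikzf2*, at 1.96, is black; the intervals of *Ikzf1*, *Ikzf3*, *Tcf3* and *Tcf4* leave out 0 before adjustment for 12088 genes, and those of *Ikzf5* and *Tcf12* include it.

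Levels were also divided by mean transcript length, since only values per length can be set side by side between genes. On this scale *Ikzf1* stood at 211.5 ± 7.58 CPM per kb without dox and 148.9 ± 20 CPM per kb with it (SD, n = 3 each, as for the other values of this paragraph). Next came *Ikzf5* at 37.1 ± 3.06 and 37.1 ± 6.72 CPM per kb. *Ikzf2* followed at 1.23 ± 0.278 and 5.16 ± 2.40 CPM per kb, and *Ikzf3* at 0.610 ± 0.0206 and 0.158 ± 0.153 CPM per kb. On this scale the order held in all 6 libraries, with no overlap between neighbours. *Ikzf1* supplied 84.4% ± 1.01 of the summed level of the family without dox and 77.8% ± 0.742 with it, while *Ikzf2* went from 0.492% ± 0.124 to 2.83% ± 1.52. As a percentage of *Ikzf1* in the same library, *Ikzf2* was 4.25, 5.24 and 1.43 with dox and 0.614, 0.425 and 0.707 without. With the longest transcript in place of the mean length these percentages had means of 7.02 and 1.12, the share of *Ikzf2* in the family was 5.58% with dox and 0.985% without, and the order of the family was the same in every library. With no division by length that share was 9.83% and 1.81%, and *Ikzf2* then stood above *Ikzf5* in dox-treated replicates 1 and 2.

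Among the E proteins *Tcf3* led with 183.7 ± 12.2 CPM per kb without dox and 139.8 ± 6.55 with it (SD, n = 3 each). *Tcf12* was at 37.2 ± 0.631 and 39.5 ± 6.51 CPM per kb and *Tcf4* at 20.2 ± 2.78 and 30.2 ± 1.42 CPM per kb. *Tcf12* was above *Tcf4* in every library, and they were closest in dox-treated replicate 1, with 33.8 against 30.7 CPM per kb. The share of *Tcf3* in the summed E-protein level was 69.0%, 65.6% and 65.6% with dox and 74.6%, 77.7% and 76.0% without, and that of *Tcf4* was 14.8%, 15.6% and 13.1% against 9.22%, 6.95% and 9.08%. Both shares separated the groups, as descriptions with no test. With the longest transcript in place of the mean length, the mean share of *Tcf3* was 73.3% with dox and 80.6% without, and with no division by length it was 59.9% and 69.9%. The mean share of *Tcf4*, 14.5% with dox and 8.42% without, became 7.28% and 4.08% with the longest transcript and 14.9% and 8.87% with no division by length.

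**Figure D3:**
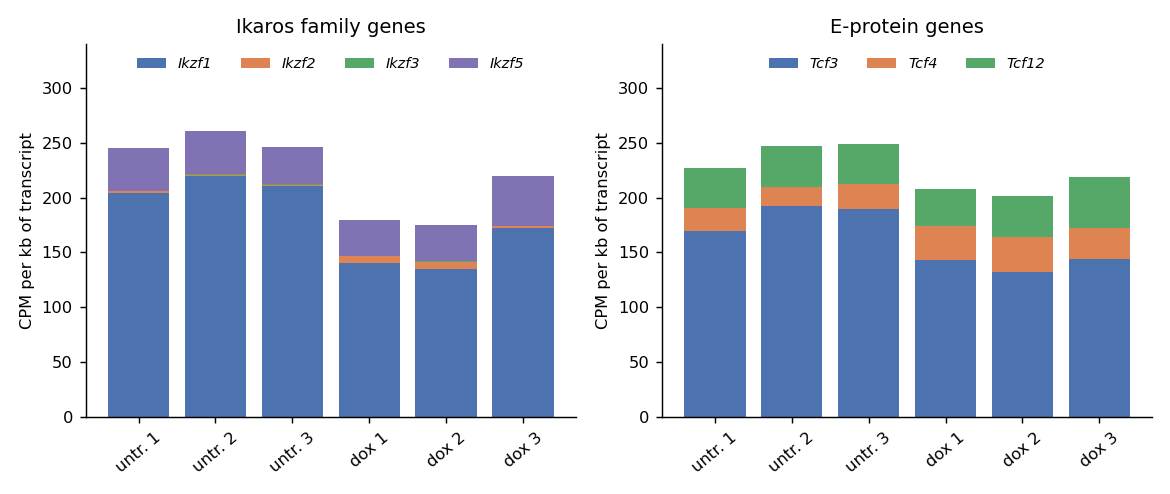
Summed level of the Ikaros family genes (left) and the E-protein genes (right) in each library, in CPM per kb of mean transcript length on a linear axis from 0, with a colour for each gene. *Ikzf1* and *Tcf3* make up most of each bar; the Ikaros bars run from 174.9 to 219.2 with dox and 244.9 to 260.3 without, and the E-protein bars from 201.6 to 219.0 and 227.3 to 248.9.

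Of 22 E-protein partners and inhibitors, 13 are listed and were tested, 1 rose and 2 fell, beside 4.59% and 3.18% of all genes, and the median log2 fold change was 0.09 beside −0.03 for all genes. The ID genes exchanged places. *Id1* had 64, 68 and 56 reads with dox and 4, 4 and 2 without, a pooled 188 against 10, and rose by a log2 fold change of 3.90 (SE 0.22, limma, adjusted p = 0.0026), or 16.5-fold in pooled reads with an exact counting interval of 8.78 to 35. That interval, too, covers counting error alone and not the spread between libraries. With 0.311, 0.296 and 0.182 CPM without dox, *Id1* passed the filter of 1 CPM only through the dox-treated group. At those untreated levels the only gene of this list called higher could be tested only if it was higher with dox. *Id2* went the other way, from 7.85, 4.43 and 6.37 CPM without dox to 1.62, 1.27 and 1.80 CPM with it, a log2 fold change of −1.95 (SE 0.25, limma, adjusted p = 0.015). The call of *Id2* was lost without dox-treated replicate 1, dox-treated replicate 2 or untreated replicate 3, with adjusted limma p-values between 0.057 and 0.067. *Id3* and *Id4* are not listed.

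Per length, *Id1* made up 77.2% ± 6.08 of the summed ID level with dox and 5.14% ± 2.12 without (SD, n = 3 each). The summed ID level itself was 2.78%, 2.89% and 2.21% of the summed E-protein level with dox and 2.85%, 1.53% and 2.08% without, so the groups overlapped. With the longest transcripts the mean percentages were 3.50 and 2.98, and without division by length 1.15 and 1.11.

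Of the E-protein partners other than the ID genes, only *Ssbp3*, whose product stabilizes LDB1, passed the threshold, and *Ssbp3* fell. It had 107.0, 99.2 and 108.6 CPM with dox and 149.4, 168.0 and 162.1 CPM without, a log2 fold change of −0.61 (SE 0.10, limma, adjusted p = 0.029), and its adjusted p was between 0.076 and 0.12 when dox-treated replicate 1 or 2 or any untreated replicate was left out. *Tal1*, the bHLH partner, had 303.1 ± 8.42 CPM with dox and 348.7 ± 49.2 CPM without (SD, n = 3 each), a log2 fold change of −0.19 with an adjusted limma p of 0.36. For *Lmo2* the log2 fold change was 0.27 (adjusted limma p 0.17) and the groups did not overlap. *Lyl1* was also higher in mean (0.20, adjusted limma p 0.45) and *Ldb1* lower (−0.21, adjusted limma p 0.36). *Lmo1*, a relative of *Lmo2*, had 11.0, 10 and 1.48 CPM with dox and 1.79, 0.813 and 0.819 CPM without. Replicate 3 lay within the untreated range, and the log2 fold change of 2.32 had an adjusted limma p of 0.13, or 0.011 without that replicate.

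All 30 Ikaros partners and modifiers are listed, 2 rose and none fell, with a median log2 fold change of −0.14; over all genes 4.59% were called higher and 3.18% lower, so the count is near the background. At an unadjusted limma p under 0.05, 3 were higher and 3 lower, beside 29.2% of all genes in either direction, among them the corepressor gene *Sin3b* (log2 fold change 0.32) and *Mbd3* of NuRD (−0.29), whose adjusted p-values were 0.085 and 0.12. *Chd3*, a NuRD ATPase that can take the place of CHD4, rose from 64.4, 66.8 and 83.8 CPM to 291.0, 324.3 and 162.8 CPM, a log2 fold change of 1.80 (SE 0.28, limma, adjusted p = 0.024). Dox-treated replicate 3 was again the lowest of its group, as with *Ikzf2*, and without it the log2 fold change was 2.11. *Chd4*, the main NuRD ATPase, had 665.2 ± 18.0 CPM with dox and 735.9 ± 33.8 CPM without (SD, n = 3 each), a log2 fold change of −0.15 with an adjusted limma p of 0.35. *Crbn*, which encodes cereblon, the substrate receptor through which lenalidomide leads to the destruction of Ikaros and Aiolos in human cells, rose from 45.1, 36.5 and 43.8 CPM to 68.0, 77.0 and 67 CPM, a log2 fold change of 0.76 (SE 0.13, limma, adjusted p = 0.029). Leaving out dox-treated replicate 1 or 2 or any untreated replicate took *Chd3* to adjusted p-values of 0.073 to 0.086 and *Crbn* to 0.076 to 0.12.

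Of 32 genes that Ikaros and E proteins are known to control in lymphoid cells, 20 are listed, none rose and 2 fell, a count near the 7.77% of all genes called in either direction, and the median log2 fold change was 0.32. *Pax5*, *Rag2*, *Ptcra* and *Cd3e* were among the 12 not listed. *Irf8*, a factor of monocytes, dendritic cells and B cells, fell from 44.9, 20.2 and 38.2 CPM to 8.03, 5.21 and 5.39 CPM, a log2 fold change of −2.41 (SE 0.34, limma, adjusted p = 0.018). *Blnk*, an adaptor of the B cell receptor, fell from 6.61, 7.69 and 5.19 CPM to 2.95, 1.34 and 1.54 CPM, by 1.79 on the log2 scale (SE 0.32, limma, adjusted p = 0.034). *Irf8* is also among the granulocyte-monocyte markers, whose summed level was lower in every dox-treated library, and the part of those cells in its difference was not tested. Both calls depended on single libraries: the adjusted limma p of *Irf8* was between 0.050 and 0.078 without dox-treated replicate 1 or 2 or untreated replicate 1 or 3, and that of *Blnk* between 0.088 and 0.11 without dox-treated replicate 2 or any untreated replicate.

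Other lymphoid target genes had higher means with dox without passing the test. *Satb1*, a chromatin organizer of T cells and stem cells, had 30.5 ± 16.2 CPM with dox and 12.5 ± 4.43 CPM without (SD, n = 3 each), with an adjusted limma p of 0.14. *Dntt*, the gene of terminal transferase, had 48.2, 8.19 and 27.8 CPM with dox and 9.25, 4.58 and 11.2 CPM without, and the groups overlapped. *Rag1* was at 0 reads in dox-treated replicate 2 and at 47 and 34 reads in the others, which shows how uneven such genes were within a group.

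**Figure D4:**
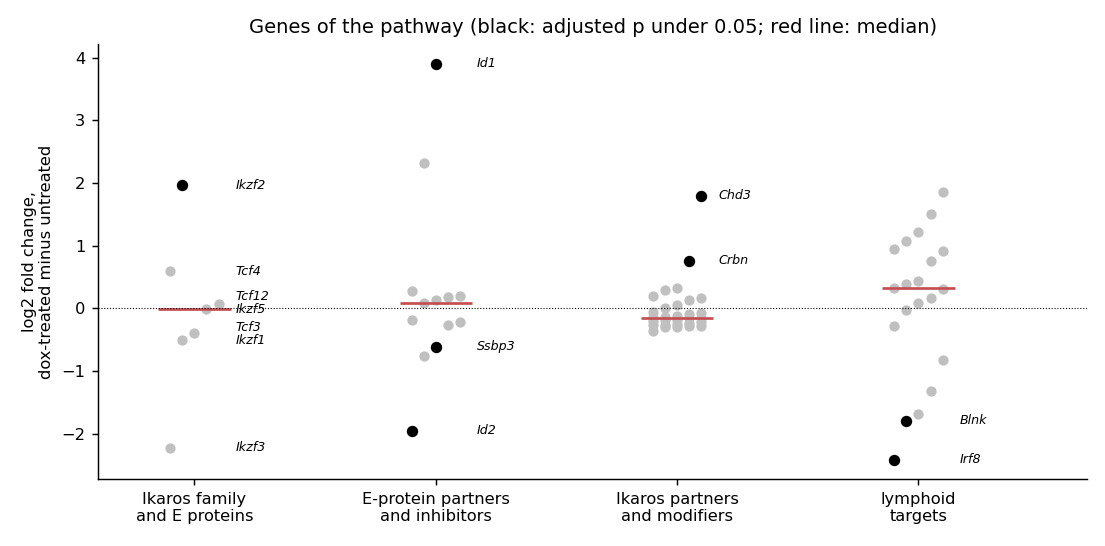
Log2 fold change, dox-treated minus untreated, of each tested gene of the Ikaros family and E proteins, their partners and their lymphoid targets, in 4 columns, with black points for an adjusted p under 0.05 and a red line at each median. The medians lie between −0.14 and 0.32, and *Id1* at 3.90 and *Irf8* at −2.41 are the outermost called genes.

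For the 3 members with the widest range over libraries, the genes with the most similar log2 values were looked up among the 9987 genes whose mean level reached 5 CPM. The libraries share the same group difference, so these coefficients over 6 libraries are descriptions. *Ikzf2* was closest to *Pan3* (Pearson r = 0.9995), *Fam3a* (0.9993) and *Atp13a2* (0.9989). *Atp13a2*, the gene of a lysosomal transporter, had 261.6, 298.0 and 162.5 CPM with dox and 101.6, 84.4 and 113.3 CPM without, so that dox-treated replicate 3 was again the lowest of its group. *Tcf4* was closest to *Golga5* (0.9990), *Gp9* (0.9968) and *Zfp281* (0.9962). *Gp9*, a platelet glycoprotein gene and one of the megakaryocyte markers, had 9.65, 9.98 and 8.53 CPM with dox and 3.89, 2.81 and 5.09 CPM without. *Ikzf3* was closest to *Plxna1* (0.9875), *Lcn2* (0.9864) and *Ltf* (0.9790); *Lcn2* and *Ltf* encode granule proteins of neutrophils. *Ltf* had 1.47, 11.6 and 3.47 CPM with dox and 21.3, 18.7 and 26.3 CPM without, and dox-treated replicate 2 was the highest of its group for *Ltf*, as it was for *Ikzf3*.

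The calls of the members depended on the fit. Over 16 alternatives, *Ikzf2* passed the threshold in 9, *Tcf4* in 6, *Ikzf1* in 5 and *Tcf3* in 4, *Ikzf3* passed in 2 of 15, and *Ikzf5* and *Tcf12* passed in none. The adjusted limma p ran from 0.0022 to 0.15 for *Ikzf2*, from 0.0097 to 0.19 for *Tcf4*, from 0.0041 to 0.21 for *Ikzf1*, from 0.014 to 0.25 for *Tcf3* and from 0.0052 to 0.19 for *Ikzf3*. The direction of *Ikzf1*, *Ikzf2*, *Tcf3* and *Tcf4* was the same in all alternatives run. That of *Ikzf3*, which reached the filter only through the untreated group, was the same in the 15 that tested it.

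**Figure D5:**
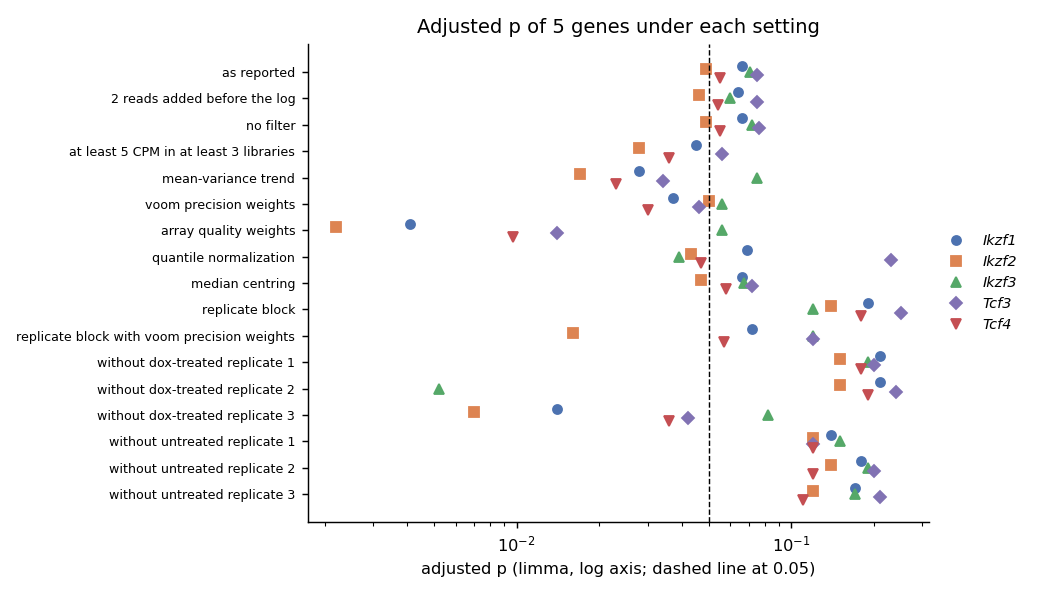
Adjusted p from limma (log axis) of the 5 genes whose groups do not overlap, under the reported fit and each alternative fit (rows), with a dashed line at the threshold of 0.05. In the reported fit *Ikzf2*, at 0.049, is the only gene left of the line, and the others lie between 0.055 and 0.075.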

How the data were processed

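RNA was sequenced from MEPs of adult Nanog-tg mice, in 3 dox-treated and 3 untreated replicates grouped by their labels. The authors trimmed adapters (Cutadapt), estimated expression per gene against Ensembl transcripts of NCBIM37 (RSEM) and normalized with limma. The deposited values are log2 CPM, where CPM is counts per 1000000 reads of a library size the authors had normalized, after adding 0.5 reads. Recovered reads were whole for 100% of genes in every library, to within 6.6e-09 reads, and were used for depth and counting intervals. The method behind the library sizes and the use of strand are not given in the sources used here.

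The deposited log2 values of the 12088 genes that reached 1 CPM in 3 or more libraries were fitted with limma 3.58.1 (R 4.3.3; lmFit and eBayes, no covariate), with Benjamini–Hochberg adjustment and a threshold of 0.05. Adding 0.5 reads shrinks the fold change where reads are few. For each member a two-sided exact permutation test was run as well. The fit was tested on simulated data, and 16 alternatives were run. Tables and figures used Python 3.11.15, pandas 2.3.3, numpy 2.4.6, scipy 1.17.1 and matplotlib 3.10.9. Levels per length used the mean length of annotated transcripts. Positions and sequences are from the GENCODE annotation and genome of NCBIM37.

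The members and lists were chosen with earlier results of these data known. Genes named are all members, *Nanog*, of each pathway list the genes past the threshold (at most 8), filled up to 4 by the smallest p-values where fewer pass, and for 3 members the 3 most correlated genes. *Tal1*, *Lmo2*, *Lyl1*, *Ldb1*, *Chd4*, *Cd34*, *Dntt*, *Rag1*, *Lat*, *Nkg7*, *Lair1*, *Runx2* and *Bst2* were added after their values were seen. A gene that this rule named is not reported here.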

Additional observations from a re-analysis of the deposited data

How the results depend on the processing

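With 3 libraries a group, calls near the threshold depended on the fit. Over all genes, 555 higher and 384 lower became 909 and 747 with a mean-variance trend and 2515 and 2601 with array quality weights; leaving out 1 library gave 92 to 1801 higher and 36 to 1687 lower, the upper values without dox-treated replicate 3 and at most 143 and 126 without any other library. The members, 1 higher and 0 lower as reported, were 2 and 1 with a minimum of 5 CPM or quantile normalization, 2 and 2 with the trend or array weights, 1 and 2 with voom weights (*Tcf4* higher, while *Ikzf2* was lost at an adjusted p of 0.050), and 0 to 2 in each direction with a library left out. E-protein partners (1 and 2) gave 0 and 1 with a minimum of 5 CPM, which removes *Id1* and *Id2*, 3 higher with array weights and, with a library left out, 1 to 2 higher and 0 to 2 lower. Ikaros partners (2 and 0) gave 4 and 6 with array weights and 0 to 3 in each direction with a library left out. Lymphoid targets (0 and 2) gave 1 higher with 2 reads added, a minimum of 5 CPM, the trend, voom weights, quantile normalization or median centring, 4 with array weights, and 0 to 3 higher and 0 to 2 lower with a library left out. *Ikzf5* turned from −0.01 to 0.01 with quantile normalization and to 0.05, 0.07, 0.02 and 0.03 without dox-treated replicate 1 or 2 or untreated replicate 1 or 2, within a range of −0.16 to 0.07 over the libraries left out; *Tcf12* turned from 0.07 to −0.04 with array weights and −0.05 without dox-treated replicate 3, within a range of −0.05 to 0.18. Apart from smaller samples where libraries were left out, the cause was not tested.

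The labels number the replicates 1 to 3 in both groups, but deviations of same-numbered libraries had a mean correlation of −0.134 against 0.071 for other pairs, and no source says that a number marks a shared animal or day. With the replicate block, 53 genes were higher and 29 lower, 77 of them also called without it, and 0 members, 1 E-protein partner higher and 1 lower, 0 Ikaros partners higher and 1 lymphoid target lower were called. The block with voom weights gave 2 E-protein partners higher and 2 lymphoid targets higher, and called *Ikzf2* (adjusted p = 0.016).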

Other observations

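Of the HMG-box TCF and LEF factors, 2 of 4 are listed. *Tcf7* had 11.4 ± 6.95 CPM with dox and 8.32 ± 3.50 CPM without (SD, n = 3 each; log2 fold change 0.38, limma, adjusted p = 0.64), *Tcf7l2* had 5.36 ± 2.14 and 3.62 ± 0.433 CPM (0.47; limma, adjusted p = 0.40), and *Tcf7l1* and *Lef1* are not listed. Of the zinc finger repressors that also bind E-boxes, *Zeb1* had 41.3 ± 2.99 and 40.9 ± 3.63 CPM (0.01; limma, adjusted p = 0.94). *Zeb2* had 106.2, 111.7 and 102.5 CPM with dox and 97.7, 74.8 and 97.5 CPM without; the groups did not overlap, and the log2 fold change of 0.26 had an adjusted limma p of 0.27. These genes were chosen after values of the series were known.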
